A study of Homo sapiens with 4 samples.

Results

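The TRIM family of ubiquitin ligases was followed in A549, a human lung adenocarcinoma cell line, after siRNA (small interfering RNA, which triggers degradation of a matching transcript) to the long non-coding RNA SBF2-AS1. Members were chosen by name alone: every symbol in the deposited count table made of TRIM and digits only, which gave 67 of 40205 symbols and left out 48 further symbols that start with TRIM (pseudogenes, lettered copies, antisense and readthrough genes). Of the 67, 54 had a count in at least 1 library and 45 had enough counts to be tested. The 13 with no count were at 0 in every library; a count of 0 allows up to 3 counts, or 0.227 to 0.255 CPM by library (counts per 1000000 counts of the library, scaled between libraries with the TMM method). There were 2 control libraries, labelled NC-1 and NC-2 and treated with negative control siRNA, and 2 libraries labelled Knockdown-670 and Knockdown-732 and treated with siRNA to SBF2-AS1. All 4 came from the same line, were transfected with a lipid reagent and were harvested at 24 h. The labels explain neither the numbers in the knockdown names nor whether replicates were separate cultures, so the p-values speak of the spread among these 4 libraries, which may be technical.

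TRIM proteins are named for a tripartite motif at their N-terminal end: a RING domain, which recruits a ubiquitin-charged E2 enzyme, then B-box zinc fingers and a coiled coil. The C-terminal end decides the target and divides the family into classes, the most common of which ends in a PRY-SPRY domain. Many members act in innate immunity, as sensors of virus capsids or antibody-coated virus, as ligases for proteins of the RIG-I pathway, or as feedback inhibitors, and a subset is transcribed in response to interferon. Others serve in chromatin repression, centriole control, neurons or striated muscle.

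The libraries held 12149767 to 12938143 counts, of which TRIM genes took 0.246 and 0.233% in the controls and 0.255 and 0.261% in Knockdown-670 and Knockdown-732. SBF2-AS1, the siRNA target, was at 4.41 and 5.97 CPM in the controls and 1.27 and 1.42 CPM in the knockdown (log2 fold change -1.94, SE 0.30, edgeR adjusted p = 3.19e-05). The 6 epithelial markers summed to 6925 and 6962 CPM in the controls and 5749.7 and 5335 CPM in the knockdown. Of these KRT8 (-0.40 on the log2 scale), KRT18 (-0.86) and EPCAM (-0.56) fell, KRT19 rose (1.06), and KRT7 and CDH1 did not pass; their part in the TRIM values was not tested. The leukocyte markers PTPRC, CD3E, HLA-DRA and LYZ had at most 2 counts a library, CD3E and HLA-DRA being at 0, and the 6 striated muscle markers at most 2. Neuronal markers were present in all libraries, with a summed level of 128 and 137 CPM in the controls and 144 and 139 CPM in the knockdown. Of the 5 neuronal genes 2 rose and 1 fell. Over all genes tested 23.5% rose and 22.8% fell, which is the background for the epithelial genes too. The part of the neuronal genes in the TRIM values was not tested. The leukocyte genes CD14 and ITGAM and the fibroblast genes COL1A1 and COL3A1 were tested and none passed. The fibroblast sum was 9.97 and 9.60 CPM in the controls and 13.6 and 10.4 CPM in the knockdown. At the level of a bulk library, a change in RNA per cell and a change in the mixture of cells cannot be told apart.

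Of the 45 tested TRIM genes, 19 rose, 8 fell and 18 did not pass (quasi-likelihood test of edgeR, adjusted p at 0.05). The 27 called genes among 45 compare with 46.3% called of all 16120 genes tested. The share that rose was larger among TRIM genes (19 of 45) than over all genes (23.5%), and the share that fell was 8 of 45 against 22.8%. At least a 2-fold change was seen in 11 TRIM genes, 9 higher and 2 lower, against 10.2% of all genes. The 2 groups of libraries did not overlap in 35 of 45 TRIM genes, and in 72.6% of all genes. The median log2 fold change was 0.077 over the family and -0.0024 over all genes. Outside the interferon-inducible list described next, 36 TRIM genes were tested, of which 10 rose and 8 fell, with a median of -0.10. With DESeq2 in place of edgeR, 12 TRIM genes rose and 6 fell, where 16.9% of all genes rose and 16.1% fell.

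**Figure D1:**
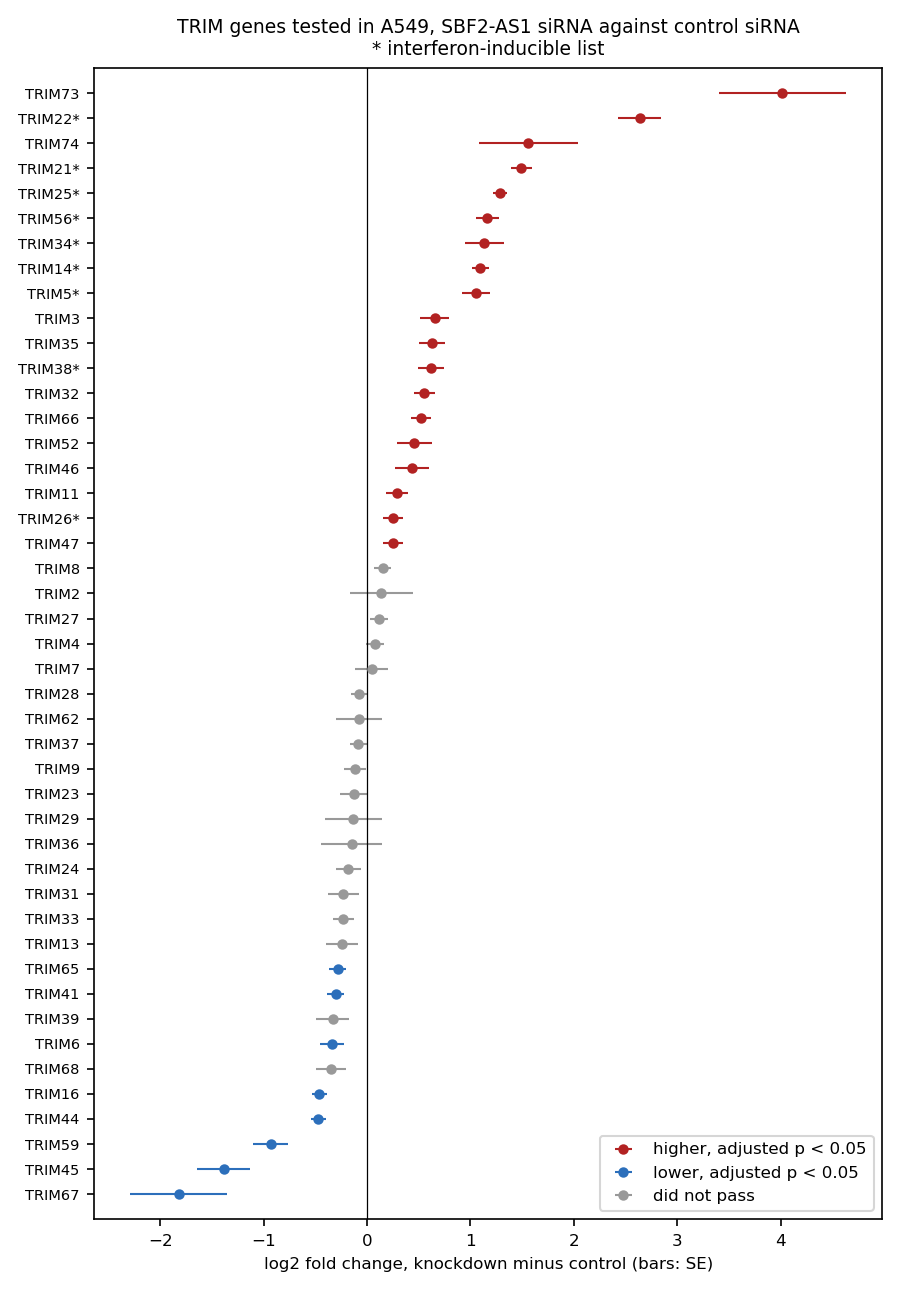
Fitted log2 fold change of the 45 tested TRIM genes, knockdown minus control (x axis), with bars for the standard error, ordered by value; red genes rose, blue genes fell and grey genes did not pass an adjusted p of 0.05. Asterisks mark the interferon-inducible list, all 9 tested members of which lie to the right of 0, from 0.25 (TRIM26) to 2.64 (TRIM22).

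The sum over the family was 2412 and 2281 CPM in the controls and 2636 and 2656 CPM in Knockdown-670 and Knockdown-732. This total rested on few genes, counted without regard to length. TRIM28, a corepressor, made up 32.8% of it in the controls and 27.6% in the knockdown, and TRIM16, which lacks a RING domain, 13.8 and 8.87%. The share of TRIM25, the ligase that acts on RIG-I, went from 8.35 to 18.1%. Without the 10 genes of the interferon-inducible list, the sum was 2048 and 1919.8 CPM in the controls and 1840.3 and 1831 CPM in the knockdown. The family total was thus larger in the knockdown libraries with that list and smaller without it. As all tested members of the list rose, removing it had to lower the knockdown sum relative to the control sum. From control to knockdown, TRIM25 alone went from a mean of 196 to 479 CPM, and the family sum from 2347 to 2646 CPM.

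**Figure D2:**
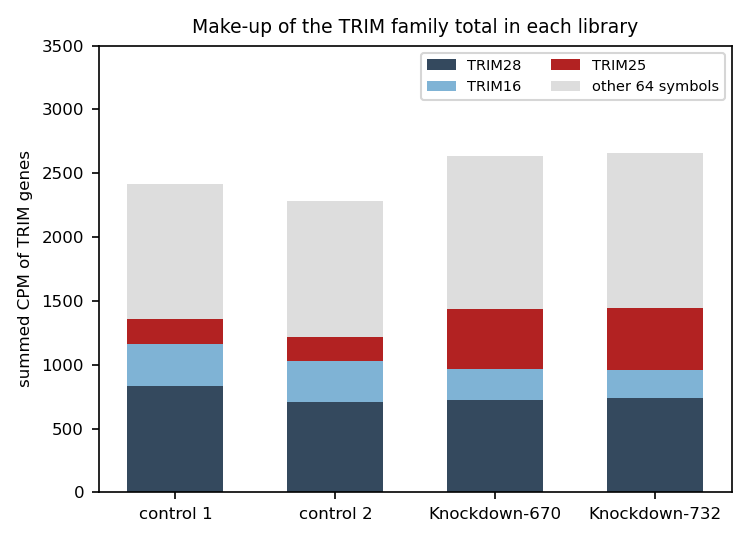
Summed CPM of all 67 TRIM symbols in each of the 4 libraries (y axis), split into TRIM28, TRIM16, TRIM25 and the others. The totals run from 2281 to 2656 CPM, and the TRIM25 segment is taller in both knockdown libraries than in both controls.

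The interferon-inducible list was drawn up with earlier results of these data known, so it may favour genes that rose and need not be complete. Its members, known from the literature to be induced by interferon, were TRIM5, TRIM14, TRIM21, TRIM22, TRIM25, TRIM26, TRIM34, TRIM38, TRIM56 and TRIM69. All 9 that could be tested rose, where 23.5% of all genes did, with a median log2 fold change of 1.13; TRIM69, a ligase that restricts vesicular stomatitis virus, had counts of 1, 6, 5 and 9 in control 1, control 2, Knockdown-670 and Knockdown-732 and was too scarce. TRIM25 polyubiquitinates RIG-I, which passes its signal to MAVS. TRIM25 was the most abundant of the list, at 199 and 193 CPM in the controls and 473 and 485 CPM in the knockdown. This was a 2.44-fold rise (log2 fold change 1.29, SE 0.07, edgeR adjusted p = 3.24e-11). TRIM22, a nuclear and cytoplasmic antiviral ligase, had the largest fold change of the 9: 2.32 and 1.89 CPM in the controls and 13.3 and 12.9 CPM in the knockdown. Its counts were 30, 25, 157 and 164 in that order, a 6.24-fold rise (log2 fold change 2.64, SE 0.21, edgeR adjusted p = 7.93e-09). TRIM21, the cytosolic receptor that binds antibody on incoming virus and sends it to the proteasome, stood at 18.8 and 17.9 CPM in the controls and 51.4 and 52.0 CPM in the knockdown, 2.82-fold higher (log2 fold change 1.49, SE 0.10, edgeR adjusted p = 1.61e-09). In each of these 3 genes the knockdown libraries were close to each other and far above both controls.

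TRIM56, which binds viral RNA and promotes STING and TLR3 signalling, was at 19.2 and 24.0 CPM in the controls and 47.7 and 49.2 CPM in the knockdown (log2 fold change 1.16, SE 0.11, edgeR adjusted p = 1.48e-07). TRIM14, an adaptor on the mitochondrial membrane that has no RING domain of its own, was at 44.9 and 43.5 CPM in the controls and 93.7 and 95.4 CPM in the knockdown (log2 fold change 1.10, SE 0.08, edgeR adjusted p = 2.86e-09). TRIM34, a close relative and partner of TRIM5, was at 4.48 and 4.61 CPM in the controls and 9.26 and 10.7 CPM in the knockdown (log2 fold change 1.13, edgeR adjusted p = 7.81e-05). These 3 genes rose 2.24-, 2.14- and 2.20-fold, and no control library reached the lower knockdown library. TRIM5, which recognises retroviral capsid lattices, was at 17.9 and 21.7 CPM in the controls and 36.1 and 45.9 CPM in the knockdown (log2 fold change 1.05, SE 0.13, edgeR adjusted p = 6.14e-06). The 2 knockdown libraries stood apart from each other for TRIM5, yet both lay above both controls.

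The smallest fold changes among the 9 were those of TRIM38 and TRIM26. TRIM38, which limits Toll-like receptor signalling, was at 17.4 and 16.9 CPM in the controls and 27.3 and 25.4 CPM in the knockdown (log2 fold change 0.62, SE 0.12, edgeR adjusted p = 0.000452). TRIM26, a ligase encoded near the class I MHC genes, was at 39.9 and 37.3 CPM in the controls and 43.6 and 48.3 CPM in the knockdown (log2 fold change 0.25, SE 0.10, edgeR adjusted p = 0.0372). The TRIM26 call did not hold with library size only (0.19, adjusted p = 0.119), in DESeq2, with an offset for GC content and length (0.061), against a 1.2-fold change, or without control library 1, control library 2 or Knockdown-732; over its 12 alternatives the adjusted p ran from 0.0276 to 0.629. The other 8 calls of the list held in all 12.

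**Figure D3:**
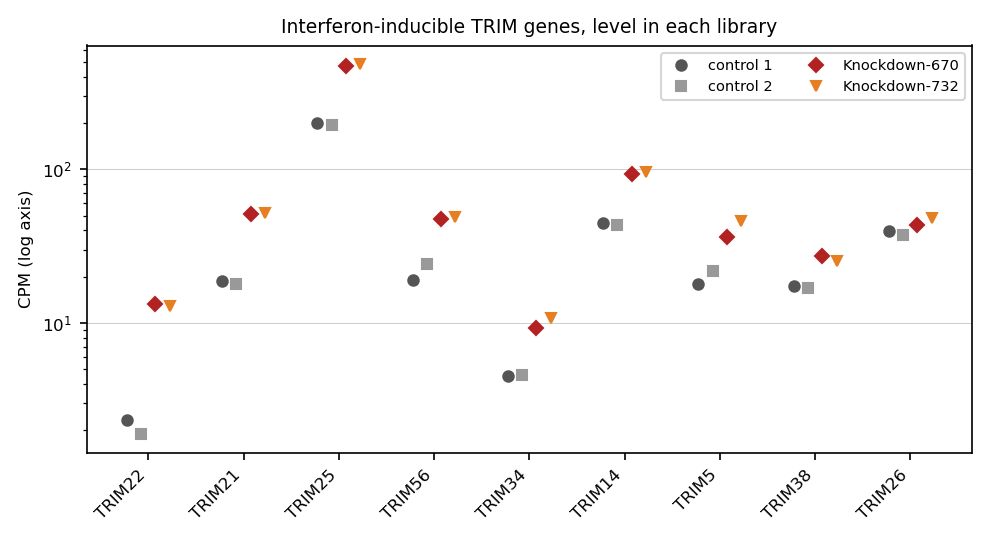
Level of the 9 tested interferon-inducible TRIM genes in each library (y axis, CPM on a log axis; 1 point a library, grey for controls, red and orange for Knockdown-670 and Knockdown-732). In every gene both knockdown points lie above both control points, by the most in TRIM22 and the least in TRIM26.

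Because these genes rose together, their promoters were read for the core of the interferon-stimulated response element, GAAANNGAAA on either strand (TTTCNNTTTC on the other), in RefSeq windows on GRCh38.p14 that run from 250 bases before to 50 bases after the annotated start. Windows were found for 53 of the 67 TRIM genes, and 9 of those held a match, or 17.0%, against 4.38% of all 27305 genes, each gene counted once if any of its windows held one (3.57% of all 35116 windows). Among the listed interferon-inducible genes, TRIM22 had no window, so its promoter was not read. Of the other 9, which had a window, 6 held a match: the 5 shown here, all of which rose, and the untested TRIM69. The stretches that carry the match are printed below, 5′ to 3′ along the gene, with the match in capitals, because they show the match and its surroundings in the listed genes that rose and held it.
TRIM14: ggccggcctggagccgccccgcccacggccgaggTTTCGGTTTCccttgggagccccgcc
TRIM5: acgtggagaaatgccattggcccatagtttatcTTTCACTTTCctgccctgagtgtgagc
TRIM34: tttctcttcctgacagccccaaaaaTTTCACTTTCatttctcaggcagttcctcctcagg
TRIM26: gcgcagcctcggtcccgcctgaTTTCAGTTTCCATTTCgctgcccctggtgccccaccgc
TRIM21: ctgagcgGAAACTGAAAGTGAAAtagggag
The TRIM14 stretch lies at chr9:98119223-98119282 on the minus strand and the TRIM5 stretch at chr11:5685075-5685134 on the minus strand. In both, the match starts close before the annotated start, 26 bases upstream in TRIM14 and 27 in TRIM5. The TRIM34 match starts 90 bases upstream, within chr11:5624886-5624945 on the plus strand, and shares its 10 letters with that of TRIM5; TRIM34 has a second annotated start, whose window held no match. The TRIM26 stretch at chr6:30213563-30213622 on the minus strand holds 2 overlapping matches, as does the TRIM21 stretch at chr11:4393663-4393692 on the minus strand, where they lie after the start. The first TRIM26 match starts 194 bases upstream.

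The element was neither confined to genes that rose nor present in all of them. Of 16 TRIM genes that rose and had a window, 5 held it; TRIM25, TRIM38 and TRIM56 did not. Of 7 that fell, 2 held it, TRIM16 and TRIM44, and of 11 that did not pass, 1 did, TRIM2. Their stretches are shown for comparison with those above.
TRIM44: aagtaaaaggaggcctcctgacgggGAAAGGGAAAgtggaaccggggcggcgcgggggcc
TRIM16: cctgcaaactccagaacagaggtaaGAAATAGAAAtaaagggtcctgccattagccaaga
TRIM2: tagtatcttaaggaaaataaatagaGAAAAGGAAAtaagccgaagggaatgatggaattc
These lie at chr11:35662715-35662774 on the plus strand, chr17:15682997-15683056 on the minus strand and chr4:153151921-153151980 on the plus strand, with the match starting 35, 80 and 217 bases upstream. A match is a run of letters in a fixed window and was not tested for function.

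Several of the interferon-responsive genes are neighbours on the short arm of chromosome 11. These are TRIM5, TRIM21, TRIM22 and TRIM34, so the counts of this region overlap those of the interferon-inducible list. Of the 8 TRIM genes of 11p15, 6 rose and 1 fell, where 23.5% of all genes rose and 22.8% fell, and the median log2 fold change was 0.85. In their order along the arm, the fitted log2 fold changes were 1.49 for TRIM21, -0.35 for TRIM68, -0.34 for TRIM6, 1.13 for TRIM34, 1.05 for TRIM5, 2.64 for TRIM22, 0.65 for TRIM3 and 0.52 for TRIM66. Genes with opposite signs thus stood side by side. TRIM6, which makes unanchored ubiquitin chains that activate the kinase IKK-epsilon, was at 28.9 and 30.8 CPM in the controls and 22.0 and 25.2 CPM in the knockdown (log2 fold change -0.34, SE 0.12, edgeR adjusted p = 0.0246), although TRIM34 next to it rose. The readthrough gene TRIM6-TRIM34, which shares 81.3% of the 50-base transcript windows of TRIM34 and 25.8% of those of TRIM6, was at 12.1 and 12.2 CPM in the controls and 15.4 and 18.6 CPM in the knockdown (log2 fold change 0.48, edgeR adjusted p = 0.0111). The sources used here do not state how reads were divided among the 3, so the values of TRIM34, TRIM6 and the readthrough are uncertain.

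The TRIM6 call was lost without control library 2 (log2 fold change -0.30) and without Knockdown-670 (-0.25). It was also lost in DESeq2, with an offset for GC content and length (edgeR adjusted p = 0.101) and against a 1.2-fold change (edgeR adjusted p = 0.243). TRIM68, a coactivator of the androgen receptor, was at 15.4 and 14.8 CPM in the controls and 11.2 and 12.4 CPM in the knockdown and missed the threshold (edgeR adjusted p = 0.0525), which it passed with library size only and with the GC and length offset (-0.45, adjusted p = 0.0142). The NHL-repeat protein TRIM3 was at 13.3 and 13.3 CPM in the controls and 22.4 and 19.5 CPM in the knockdown (log2 fold change 0.65, SE 0.14, edgeR adjusted p = 0.000688), and the TIF1-type protein TRIM66 at 32.3 and 34.4 CPM in the controls and 49.1 and 46.9 CPM in the knockdown (log2 fold change 0.52, SE 0.09, edgeR adjusted p = 0.00018); with the GC and length offset TRIM66 was at 0.25 (adjusted p = 0.0272). Neither is on the interferon list, and in neither did the groups overlap.

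**Figure D4:**
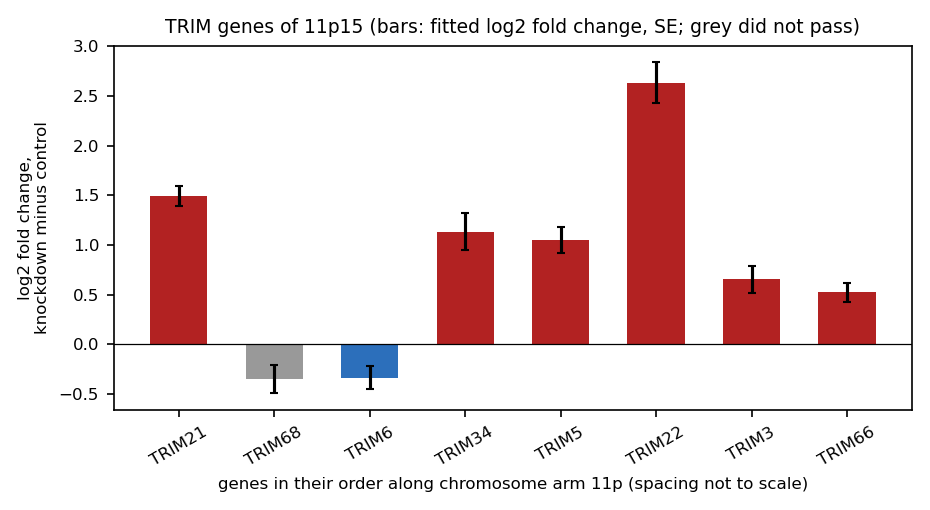
Fitted log2 fold change (y axis, with the standard error) of the 8 TRIM genes of 11p15 in their order along the chromosome arm, spacing not to scale; red rose, blue fell, grey did not pass. The neighbours TRIM6 (-0.34) and TRIM34 (1.13) point in opposite directions, and TRIM22 has the tallest bar (2.64).

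The class that ends in a PRY-SPRY domain was the largest. Of its 34 members in the table, 11 had no count and 19 were tested, of which 10 rose and 3 fell, against 23.5 and 22.8% of all genes; 7 of the 10 are on the interferon-inducible list (median log2 fold change 0.25). Outside the interferon list and 11p15, TRIM35, a ligase that interacts with the pyruvate kinase PKM2, was at 16.0 and 15.7 CPM in the controls and 25.2 and 23.9 CPM in the knockdown (log2 fold change 0.63, SE 0.12, edgeR adjusted p = 0.000447). TRIM11 (0.29) and TRIM47 (0.25) rose by little. Each call was lost in DESeq2, with library size only, against a 1.2-fold change and without either control library or Knockdown-732. With the GC and length offset TRIM11 stood at 0.0061 and TRIM47 at -0.013. Of the annotated exon bases of TRIM47, 51.5% overlap AC087289.5 on the opposite strand, and the strand setting of the counting is not stated. Members that fell were TRIM41, a ligase for protein kinase C, at 60.9 and 62.5 CPM in the controls and 49.2 and 50.8 CPM in the knockdown (log2 fold change -0.30, SE 0.08, edgeR adjusted p = 0.00599), and TRIM65, which ubiquitinates the RNA sensor MDA5, at 77.1 and 77.7 CPM in the controls and 65.2 and 61.9 CPM in the knockdown (log2 fold change -0.28, SE 0.08, edgeR adjusted p = 0.00618). Both falls were under 20% and did not pass when tested against a 1.2-fold change; with the GC and length offset TRIM65 was at -0.51. TRIM4 (0.077), TRIM27 (0.12), TRIM7 (0.046), TRIM62 (-0.079) and TRIM39 (-0.33) did not pass, the last of them sharing 26.9% of its windows with the readthrough TRIM39-RPP21.

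Of the 4 chromatin corepressors of the family, TRIM66 on 11p15 rose, and TRIM24, TRIM28 and TRIM33 did not pass. TRIM28, also known as KAP1, silences retroelements through KRAB zinc-finger proteins and was the most abundant TRIM gene per length. It was at 831 and 709 CPM in the controls and 722 and 739 CPM in the knockdown, and the groups overlapped (log2 fold change -0.076, SE 0.08, edgeR adjusted p = 0.437). Control library 1 was the highest of the 4; without it the log2 fold change was 0.037, and with the GC and length offset TRIM28 fell (-0.35, adjusted p = 0.00215). TRIM24 (log2 fold change -0.18, edgeR adjusted p = 0.227) and TRIM33 (-0.23, adjusted p = 0.0745) had both knockdown libraries below both controls and did not pass, although TRIM33 did with library size only and without Knockdown-732. The partners of TRIM28 in silencing fell in 5 of 9 cases and rose in none, where 22.8% of all genes fell and 23.5% rose. Thus 5 of 9 were called where 46.3% of all genes were, and the median over the 9 was -0.23. Among those that fell were the heterochromatin protein CBX3 (log2 fold change -0.54, SE 0.08, edgeR adjusted p = 1.29e-05), CBX1 (-0.36) and ATF7IP (-0.46). The methyltransferase SETDB1 was at 0.018 (edgeR adjusted p = 0.882).

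Of the NHL-repeat members, TRIM32, a ligase mutated in a limb-girdle muscular dystrophy, rose as TRIM3 did, at 30.8 and 28.3 CPM in the controls and 44.6 and 42.2 CPM in the knockdown (log2 fold change 0.55, SE 0.10, edgeR adjusted p = 0.000194). TRIM2, which ubiquitinates neurofilament light chain, was at 2.40 and 2.42 CPM in the controls and 2.21 and 3.07 CPM in the knockdown and its groups overlapped. TRIM71, known as LIN41 and expressed in stem cells, had 0 counts in both controls and 1 and 2 counts in the knockdown. Among symbols of TRIM and digits, the microtubule-associated class with a COS box was small and divided. MID1 and MID2, described below, are outside this count. TRIM46, which organises the axon's initial segment, was at 8.12 and 7.41 CPM in the controls and 10.4 and 10.6 CPM in the knockdown (log2 fold change 0.44, SE 0.16, edgeR adjusted p = 0.0375), a call lost when any 1 library was left out, in DESeq2, with library size only, against a 1.2-fold change and with the GC and length offset (0.15). TRIM67, a neuronal relative of TRIM9, was at 2.09 and 1.44 CPM in the controls and 0.509 and 0.473 CPM in the knockdown (log2 fold change -1.82, SE 0.47, edgeR adjusted p = 0.00376); its counts were only 27, 19, 6 and 6 in that order, and its call was lost without control library 1 (adjusted p = 0.0875) and in DESeq2. TRIM9 (-0.12) and TRIM36 (-0.15) did not pass.

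Among members with no C-terminal domain, TRIM73 and TRIM74 are scarce and share sequence. TRIM73 had counts of 2, 1, 28 and 21 in control 1, control 2, Knockdown-670 and Knockdown-732, a ratio of 17.5 with a 95% counting interval of 5.64 to 87.6 (exact binomial, counting error only; edgeR adjusted p = 3.27e-05). Its copy TRIM74 had counts of 6, 8, 23 and 16 and also rose (log2 fold change 1.56, edgeR adjusted p = 0.0114), a call lost without control library 1 and without Knockdown-670. These 2 genes lie on chromosome 7. Of the 50-base windows of TRIM74, 91.7% occur in TRIM73, while 23.9% of those of TRIM73 occur in TRIM74. Reads may thus be split between them and the separate values are uncertain, above all that of TRIM74. Summed, the pair had 17 counts in the controls and 88 in the knockdown, a ratio of 5.54 (95% counting interval 3.27 to 9.93). TRIM73 also overlaps NSUN5P1 and STAG3L1 on the same strand. NSUN5P1 was at 22.0 and 18.6 CPM in the controls and 27.9 and 26.9 CPM in the knockdown (log2 fold change 0.43, edgeR adjusted p = 0.00817), a smaller rise than that of TRIM73; its part in the TRIM73 count was not tested. TRIM50, another relative, had 3, 1, 3 and 2 counts. TRIM52 rose (0.46, edgeR adjusted p = 0.032). Its call was lost in DESeq2, with library size only, against a 1.2-fold change and without either control library or Knockdown-670. Of the annotated exon bases of TRIM52, 28.5% overlap CTC-338M12.4 on the opposite strand, with the strand setting unknown. TRIM8, a regulator of STAT and NF-kB signalling, was at 62.7 and 58.5 CPM in the controls and 67.3 and 67.4 CPM in the knockdown and did not pass (log2 fold change 0.15). TRIM31 (-0.23) did not pass either.

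The 8 genes that fell came from several classes. TRIM45, the member with a filamin-type domain, was at 6.11 and 5.90 CPM in the controls and 2.72 and 1.89 CPM in the knockdown, 61.6% lower (log2 fold change -1.38, SE 0.26, edgeR adjusted p = 0.000226). TRIM59, anchored in the endoplasmic reticulum and often high in tumours, was at 15.4 and 19.4 CPM in the controls and 10.5 and 7.80 CPM in the knockdown, 47.3% lower (log2 fold change -0.93, SE 0.17, edgeR adjusted p = 0.000213), and at -0.61 with the GC and length offset. Of the annotated exon bases of TRIM59, 19.8% overlap SMC4, a condensin subunit on the opposite strand, which was at 180.2 and 175 CPM in the controls and 60.2 and 67.8 CPM in the knockdown (log2 fold change -1.47, edgeR adjusted p = 3.66e-11). The sources used here do not state the strand setting of the counting. Without strand, reads from the overlapping stretch cannot be told apart. A further gene, AC079594.2 on the same strand, overlaps 14.5% of the exon bases of TRIM59. TRIM13, the other transmembrane member, did not pass (-0.24).

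TRIM16 and TRIM44 are abundant members without a RING domain. TRIM16, which helps clear damaged lysosomes, was at 328 and 318 CPM in the controls and 245 and 224 CPM in the knockdown, 27.3% lower (log2 fold change -0.46, SE 0.07, edgeR adjusted p = 2.77e-05). Its copy TRIM16L, whose transcripts hold 28.9% of the windows of TRIM16, was at 359 and 349 CPM in the controls and 245 and 226 CPM in the knockdown (log2 fold change -0.59), so reads may have been exchanged between them, and both fell. TRIM44, which has a ubiquitin-protease-like zinc finger, was at 101 and 95.1 CPM in the controls and 71.5 and 70.4 CPM in the knockdown, 27.8% lower (log2 fold change -0.47, SE 0.08, edgeR adjusted p = 6.04e-05). In both genes the knockdown libraries were close to each other and clear of the controls. TRIM29 (-0.13), TRIM23 (-0.12), which carries an ARF-type GTPase domain, and TRIM37 (-0.083), a regulator of centriole number, did not pass.

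Per length of the longest annotated transcript, the highest control levels were those of TRIM28 (260.1 CPM per kb), TRIM16 (96.6), TRIM25 (34.2), TRIM65 (22.5) and TRIM47 (15.6). In the knockdown TRIM25 stood at 83.5 CPM per kb, above TRIM16 at 70.2, where in the controls TRIM16 stood above TRIM25. TRIM21 went from 9.54 to 26.9 and TRIM14 from 9.92 to 21.2 CPM per kb, both above TRIM65 (18.5) in the knockdown. TRIM22 remained low even after its rise, at 0.704 CPM per kb in the controls and 4.39 in the knockdown.

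A few TRIM proteins go by other names. PML, the organiser of nuclear bodies and an interferon-induced member, was at 22.5 and 25.8 CPM in the controls and 96.3 and 90.1 CPM in the knockdown (log2 fold change 1.95, SE 0.09, edgeR adjusted p = 1.19e-11). MID1, a microtubule-bound ligase, was at 392 and 389.9 CPM in the controls and 281 and 273 CPM in the knockdown (log2 fold change -0.50, SE 0.07, edgeR adjusted p = 6.27e-06), and its relative MID2 at 24.5 and 25.6 CPM in the controls and 15.9 and 14.9 CPM in the knockdown (log2 fold change -0.70, SE 0.13, edgeR adjusted p = 0.000162). PML thus rose, as the interferon-inducible list did, and both MID genes fell. MEFV, the pyrin gene, had counts of only 12, 10, 13 and 7 and did not pass.

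The enzymes and pathway proteins with which TRIM ligases work were counted next. Of 13 E2 enzymes, 2 rose and 8 fell, against 23.5 and 22.8% of all genes (median of fitted log2 values -0.29). UBE2L6, which also serves as the E2 for ISG15, was at 43.8 and 43.5 CPM in the controls and 131 and 128 CPM in the knockdown (log2 fold change 1.57, SE 0.08, edgeR adjusted p = 1.52e-11), and UBE2E2 rose by 0.31 on the log2 scale. Falls were seen for UBE2E3 (-0.98), UBE2K (-0.78) and UBE2V2 (-0.66). UBE2N, which builds the lysine-63 chains that TRIM25 attaches, fell too (log2 fold change -0.29, SE 0.10, edgeR adjusted p = 0.0261).

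Of 16 proteins of the RNA and DNA sensing relay, 8 rose and 1 fell, where 23.5% of all genes rose and 22.8% fell. Thus 9 were called where 46.3% of all genes were, and the median over the 16 was 0.27. DDX58, the gene of RIG-I and target of TRIM25, was at 20.5 and 20.2 CPM in the controls and 123 and 133 CPM in the knockdown (log2 fold change 2.66, SE 0.09, edgeR adjusted p = 8.01e-14). IFIH1, the gene of MDA5 and target of TRIM65, was at 7.04 and 6.80 CPM in the controls and 53.0 and 53.4 CPM in the knockdown (log2 fold change 2.94, SE 0.12, edgeR adjusted p = 2.19e-12). The transcription factor IRF7 (2.95) and the antiviral protein ZC3HAV1 (1.76), to which TRIM25 binds, also rose. TAB2, which TRIM38 degrades, fell (log2 fold change -0.22, SE 0.07, edgeR adjusted p = 0.0191). RNF135, also called Riplet, a ligase of RIG-I related to the TRIM proteins, did not pass (log2 fold change -0.20, edgeR adjusted p = 0.134). Both sensors and TRIM25 rose, while TBK1 (-0.19) and IRF3 (-0.14) did not pass.

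Beside TRIM50, TRIM69 and TRIM71 above, 6 members with a count were too scarce to test. In the order control 1, control 2, Knockdown-670 and Knockdown-732, counts were 17, 8, 2 and 6 for TRIM55 and 0, 2, 0 and 4 for TRIM54, which encode muscle ring-finger proteins, and 3, 9, 0 and 1 for TRIM10 and 6, 2, 2 and 6 for TRIM15, both in the MHC region. For TRIM55 the ratio of knockdown to control was 0.342, with a 95% counting interval of 0.133 to 0.783 and no test across libraries. TRIM63, the muscle atrophy ligase, had 0, 0, 2 and 0, and TRIM40 had 0, 0, 1 and 1. TRIM72, the membrane-repair protein of muscle, was among the 13 genes at 0, with TRIM17, TRIM42, TRIM43, TRIM48, TRIM49, TRIM51, TRIM58, TRIM60, TRIM61, TRIM64, TRIM75 and TRIM77. Of the 4 muscle members, TRIM55 was above 3 counts in both controls, and TRIM72 was at 0 in every library.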

How the data were processed

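RNA-seq counts of 4 A549 libraries (2 of control siRNA, 2 of SBF2-AS1 siRNA) were read from the 1 table that the authors deposited, which holds raw counts per gene symbol. Per the labels' protocols, RNA was extracted with Trizol and sequenced on the Ion Proton. Per the submitters' processing notes the genome build was GRCh37; the aligner, counter, annotation and strand setting are not stated in these sources. The table has 0 columns of no sample and 0 blank symbols. Replicates differed by more than counting noise (chi-square per gene 3.05 between controls and 2.82 between knockdown libraries, where noise gives about 1).

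All genes were fitted together in R 4.3.3 using edgeR 4.0.16 (filterByExpr, TMM, robust glmQLFit and glmQLFTest, Benjamini-Hochberg adjustment at 0.05 over 16120 genes). The SE of a fitted log2 value is that value over the square root of its F statistic. The biological coefficient of variation was 6.64%. CPM values use TMM-scaled library sizes. Transcript lengths, overlaps and shared 50-base windows came from GENCODE 29 on GRCh38, joined by symbol (28572 direct, 1296 by synonym, 10337 unmatched); promoter windows came from RefSeq. The scripts were tested on simulated data in which few genes changed. That test cannot speak to error rates where 46.3% of all genes were called. Every tested member could be named, with library values for those called at an absolute log2 fold change of at least 0.5 and for the interferon list; for context lists, up to 4 called members and any that went the other way. Genes outside this rule were named after their values were seen. Members, lists and tests were chosen with earlier results of these data known. Alternatives were DESeq2 size factors, library size only, no filter, 5 CPM in 2 libraries, each library left out, DESeq2 1.42.0, limma-voom (limma 3.58.1) and an offset for GC content and length; glmTreat against a 1.2-fold change and members with under 20% of windows shared were added after seeing the data.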

Additional observations from a re-analysis of the deposited data

How the results depend on the processing

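Of the 27 called TRIM genes, 17 kept direction and call in every alternative in which they were tested; the 10 that lost the call in at least 1 were TRIM6, TRIM11, TRIM26, TRIM41, TRIM46, TRIM47, TRIM52, TRIM65, TRIM67 and TRIM74. Of the 18 not called, 6 passed in the same direction in at least 1 (TRIM9, TRIM13, TRIM28, TRIM33, TRIM39 and TRIM68). The 19 genes that rose became 12 in DESeq2 and 14 with library size only. Over all genes, 16.9% rose in DESeq2 and 20.1% with library size only, against 23.5% in the main fit. The 8 that fell became 5 against a 1.2-fold change, 12 with the GC and length offset and 11 with library size only. In the same order 13.8, 22.4 and 26.5% of all genes fell, against 22.8% in the main fit. With members of under 20% shared sequence, 16 rose and 6 fell. The interferon-inducible list had 8 to 9 genes higher and a median of 1.07 to 1.21 with 1 library left out. The family median of 0.077 was 0.014 with library size only, 0.12 with no filter and 0.0061 with the GC and length offset. It was 0.038 to 0.12 with 1 library left out. Over all genes, library size only moved the fitted values by a median of -0.063 from the main fit, and the offset by -4.75e-05. Signs changed for 8 genes. With the GC and length offset TRIM7 was at -0.17, TRIM8 at -0.26 (edgeR adjusted p = 0.0129), TRIM23 at 0.13, TRIM36 at 0.056 and TRIM47 at -0.013; with library size only TRIM7 was at -0.017. With 1 library left out the range was -0.14 to 0.35 for TRIM2, -0.16 to 0.28 for TRIM7, -0.19 to 0.037 for TRIM28, -0.39 to 0.13 for TRIM36 and -0.44 to 0.21 for TRIM62. The cause was not tested. No paired analysis was possible because the labels give the groups no shared replicate numbers. With 2 libraries a group, a fit without 1 library assumes that the lone library varies like the others.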
